A study of Mus musculus with 24 samples.

Results

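The cell cycle switch described here is made of 10 genes: the kinase Cdk1, the B-type cyclins Ccnb1, Ccnb2 and Ccnb3, the phosphatases Cdc25a, Cdc25b and Cdc25c, and the inhibitory kinases Wee1, Wee2 and Pkmyt1. They were chosen by symbol, and all 10 were among the 23235 genes of the deposited table. RNA was measured in 24 libraries of mouse oocytes and zygotes (C57BL/6 background, labelled as postnatal day 21), with 2 libraries in each of 12 groups. Females were wild type (WT), Cnot6l-/- or Btg4-/-, and the labels do not describe either allele. Cnot6l encodes a deadenylase of the CCR4-NOT complex, which shortens poly(A) tails, and Btg4 encodes an adaptor that binds this complex. Fully grown oocytes arrested in prophase (germinal vesicle stage, GV) were taken 48 h after PMSG, a hormone that stimulates follicle growth. Oocytes of the first meiotic division (MI) and eggs arrested in the second (MII) came from 8 h and 16 h of culture. Zygotes were collected 24 h after hCG, which triggers ovulation, and the labels give no culture time for them. The labels give none for GV oocytes either. Between GV and MI, and between MII and zygote, stage and culture therefore cannot be told apart. Each library is a pool of cells. The labels do not say whether the libraries of a group came from separate females, so the p-values measure the spread between libraries, which may be technical.

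CDK1 bound to a B-type cyclin is the kinase that drives cells, oocytes included, into division. WEE1, the oocyte form WEE2 and the membrane-bound PKMYT1 add inhibitory phosphates to CDK1, and the CDC25 phosphatases remove them. In GV oocytes the inhibitory side holds prophase arrest, the release of CDK1 starts maturation, and cyclin B is destroyed at the end of each meiotic division and made again between them. Transcription is largely silent from the GV stage to the zygote, so the protein made in this time comes mostly from stored mRNA, which is either masked, translated or degraded.

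Stored mRNAs that are kept and translated during maturation often carry a cytoplasmic polyadenylation element (CPE) near the poly(A) signal. The last 100 bases before the deposited 3′ end of each member were therefore read on its own strand from the mm9 genome. A CPE (TTTTAT or TTTTAAT) was found in 3 of the 10 members, and in 19.1% of 10883 tested genes. The poly(A) signal (AATAAA or ATTAAA) was found in 9 of 10, all but Cdk1, against 78.5% of genes. The windows below are each 30 bases 5′ to 3′. They are shown because they hold a CPE, in capitals, beside 2 members without one, whose capitals mark the poly(A) signal. Wee2 has both in 1 window, in that order from the left: signal, then CPE.
Ccnb1, chr13:101548730-101548759, minus strand, annotated 3′ UTR: ctcatttgctgTTTTAATttatacatctga
Ccnb3, chrX:6556828-6556857, minus strand, annotated 3′ UTR: tcttgaaattacTTTTATgaaagaagagaa
Wee2, chr6:40416783-40416812, plus strand, annotated 3′ UTR: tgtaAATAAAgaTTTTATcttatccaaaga
Ccnb2, chr9:70255500-70255529, minus strand, annotated 3′ UTR: gtattgaaggaaAATAAAgctattgatcta
Cdc25a, chr9:109796365-109796394, plus strand, annotated 3′ UTR: gcaggctctgcaAATAAAagtgatcttgaa
The CPE of Ccnb1 began 55 bases from the 3′ end and that of Ccnb3 68 bases from it. Wee2 held 2 copies, of which the window shows only the nearer, beginning 20 bases from the end. Wee2 was also the member with a Pumilio-type element (TGTANATA, in 4.74% of genes), which overlaps its poly(A) signal. Of the 100 bases read, 98 lay in annotated UTR for Cdc25a and for Wee2, so these 2 labels may not hold for every base shown. A match describes these letters only, and other 3′ ends of the same genes were not searched.

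The values are FPKM, which count sequenced fragments relative to transcript length and library size. No source used here states how the libraries were scaled to each other. Summed over all genes, FPKM ran from 451732 to 543648 in the WT GV libraries and from 49930 to 76038 in WT zygotes. A fall in FPKM can therefore mean that a transcript fell with all others. A sum of the same kind was 134865 to 183621 in WT at MI, 296782 to 306383 in Cnot6l-/- and 366500 to 388589 in libraries labelled Btg4-/-. Each comparison is for this reason given as deposited and again after median-ratio scaling, which sets the libraries level on 3677 genes that every library has above 1 FPKM. In these pools fewer transcripts per cell, shorter poly(A) tails and fewer cells cannot be told apart. A fall or a kept level below therefore refers to FPKM. Cnot6l ran from 7.07 to 73.92 FPKM in WT and from 3.40 to 7.26 in Cnot6l-/-. Btg4 ran from 553.86 to 2489.88 FPKM in WT and from 764.77 to 2515.06 in the libraries labelled Btg4-/-, so its transcript level does not separate these libraries from WT. All 10 oocyte markers were at 1 FPKM or more in every group but 3 (WT at MII, and WT and Cnot6l-/- zygotes, each with 9), and their sum fell from 13876 to 15265 FPKM in WT GV oocytes to 1352 to 2328 in WT zygotes. The 12 cumulus and granulosa markers summed to 1.56 to 28.3 FPKM, and Ptx3 was listed at 0 in both libraries of 11 of the 12 groups. Of these markers, 4 reached a mean of 1 FPKM at GV in each genotype and at MI in the group labelled Btg4-/-. In the other groups 1 or 2 did. The 5 blood and immune markers summed to 0.49 to 3.13 FPKM, with Hba-a1 and Hbb-b1 at 0 throughout. As many as 2 of them reached a mean of 1 FPKM, in Cnot6l-/- GV oocytes and in GV and MI oocytes labelled Btg4-/-. The 6 sperm markers summed to 0.26 to 32.7 FPKM, highest in GV oocytes.

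In WT GV oocytes the members lay far apart in level, on the length-corrected FPKM scale. Ccnb1 stood highest with 580.3 ± 257.1 FPKM (SD, n = 2), and Ccnb2 (187.8 ± 13.9) and Wee2 (183.6 ± 37.8) followed with overlapping libraries. Cdk1 came next with 65.6 ± 17.3 FPKM. The remaining members lay far lower, from Cdc25a with 11.8 ± 3.42 FPKM to Pkmyt1 with 4.44 ± 1.32 FPKM, and neighbours from Cdc25b down to Pkmyt1 overlapped. The same 3 transcripts, Ccnb1, Ccnb2 and Wee2, were the highest in all 12 groups and made up 87.6% to 98.5% of the members' summed FPKM in each library.

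**Figure D1:**
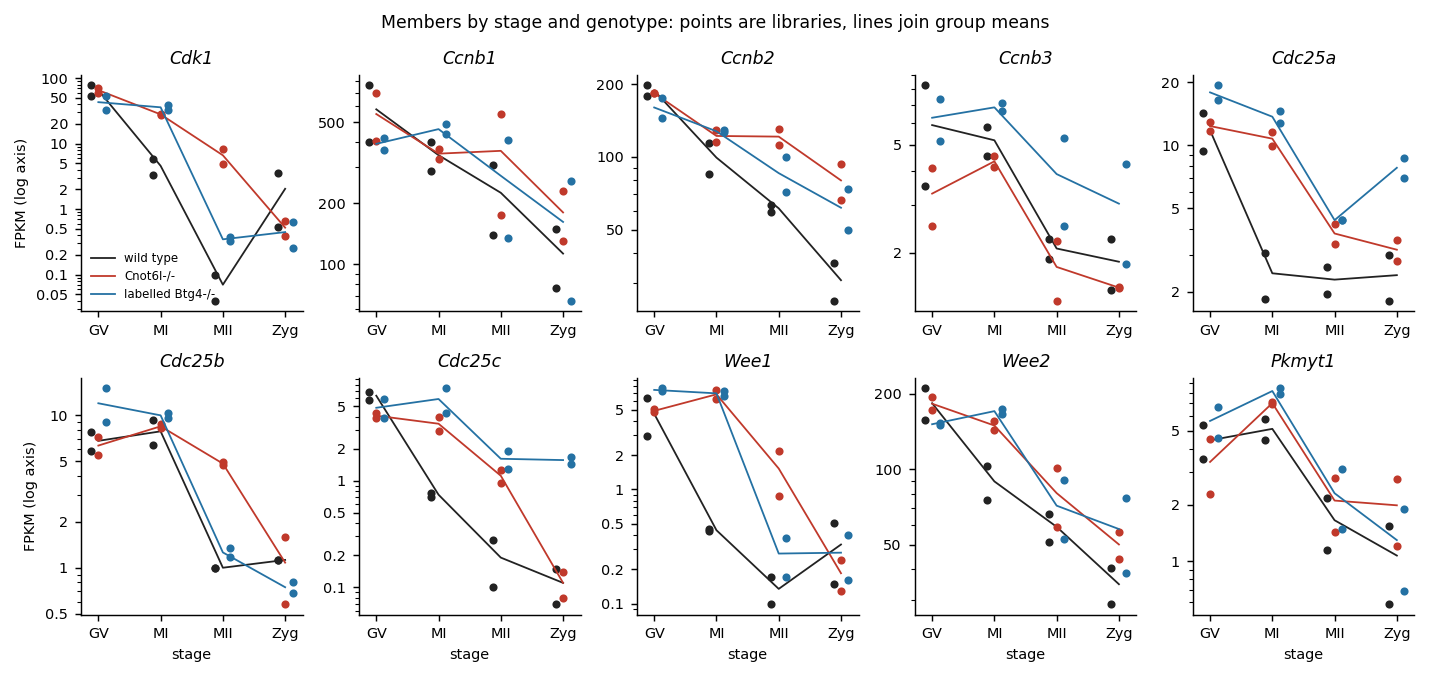
FPKM (log axis, a scale of its own for each gene) of the 10 members at the GV, MI, MII and zygote (Zyg) stages; points are libraries, 2 per group, and lines join group means for WT (black), Cnot6l-/- (red) and the group labelled Btg4-/- (blue). In WT, Cdk1, Cdc25a, Cdc25c and Wee1 drop between GV and MI, while in both other groups they are still high at MI, with every library above both WT libraries.

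Cdk1, the catalytic subunit, fell to very low FPKM by MII in WT. It was 77.8 and 53.3 FPKM in the GV libraries, 5.81 and 3.34 at MI, 0.10 and 0.04 at MII, with 3.55 and 0.53 in zygotes. The MI mean was 6.98% and the MII mean 0.107% of the GV mean, and no library of one of these stages overlapped another. On the log2(FPKM + 1) scale Cdk1 fell by 3.59 ± 0.40 (SE) from GV to MI (limma, adjusted p = 7e-07) and by 2.35 ± 0.40 from MI to MII (adjusted p = 0.00026). After scaling both falls were again called, with -2.40 and -2.48. Cdk1 also stayed called when any 1 of the 4 libraries was left out of either step.

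In Cnot6l-/- the level of Cdk1 went down over all 3 steps. Cnot6l-/- oocytes had 71.9 and 59.3 FPKM at GV, 28.7 and 27.3 at MI, 8.42 and 4.84 at MII, with 0.65 and 0.39 as zygotes. Group means were 42.7%, 10.1% and 0.793% of the GV mean at the 3 later stages. Compared with WT, Cdk1 was higher by 2.41 ± 0.40 at MI (adjusted p = 5.5e-05) and by 2.79 ± 0.40 at MII (adjusted p = 2.7e-05), and by 1.55 and 2.80 after scaling, called each time. From MI to MII it fell by 1.97 ± 0.40 (adjusted p = 0.00051), and from MII to zygote it fell by 2.29 ± 0.40 (adjusted p = 0.00035). The first step, GV to MI, was called as deposited (-1.19 ± 0.40, adjusted p = 0.04) but not without any 1 of its 4 libraries (adjusted p from 0.077 to 0.19) or after scaling (adjusted p = 0.089).

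The libraries labelled Btg4-/- followed another course: Cdk1 at MI overlapped GV, and it was very low in FPKM by MII. It was 33.2 and 52.8 FPKM at GV, 33.2 and 38.5 at MI, 0.37 and 0.32 at MII, with 0.64 and 0.25 in zygotes. The MI mean was 83.4% and the MII mean 0.803% of the GV mean. At MI Cdk1 was higher than in WT by 2.76 ± 0.40 (adjusted p = 1.2e-05; 1.62 after scaling, also called). Between MI and MII it fell by 4.77 ± 0.40 (adjusted p = 2.5e-08; -3.79 after scaling, also called), so at MII the difference from WT was 0.33 and did not pass the test.

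In zygotes the Cdk1 values of WT were uneven. The first WT library had 3.55 FPKM, while the other zygote libraries of all genotypes lay between 0.25 and 0.65. The WT difference between MII and zygote was 1.30 ± 0.40 as deposited (adjusted p = 0.077). It was 2.15 and called after scaling (adjusted p = 0.0012), where it was the 1 member called higher (all genes 15%), and also called with library number as a block (adjusted p = 0.033). As deposited it was 2.09 without the second WT zygote library (adjusted p = 0.0038) and 0.52 without the first (adjusted p = 0.6). Zygotes of Cnot6l-/- and of the group labelled Btg4-/- differed from WT by -0.80 and -0.88, neither called, and by -1.39 and -1.65 after scaling, both called. As deposited these differences were -0.01 and -0.10 without the first WT zygote library, and -1.59 (adjusted p = 0.021) and -1.67 (adjusted p = 0.0072) without the second.

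The cyclins that CDK1 binds kept more of their FPKM, with WT zygotes at 16.5% (Ccnb2) to 31.3% (Ccnb3) of the GV mean. Ccnb1, the main mitotic and meiotic cyclin B, was 762.1 and 398.5 FPKM in WT at GV, 401.0 and 288.8 at MI, 310.25 and 139.95 at MII, with 149.7 and 76.2 in zygotes. In Cnot6l-/- it was 695.1 and 405.0, then 370.2 and 331.6, then 550.6 and 174.0, and 230.7 and 129.5 in zygotes. Libraries labelled Btg4-/- gave 365.3 and 419.1, 438.4 and 488.6, 410.6 and 135.4, and 257.2 and 66.3. The libraries of most groups lay far apart, and Ccnb1 was called in none of the 27 comparisons as deposited. From MI to MII in the group labelled Btg4-/- Ccnb1 changed by -0.97 ± 0.67, and by -1.77 to -0.17 with 1 library left out. Its library numbered 1 was above the one numbered 2 in 8 of the 9 groups other than MI, by a median of 0.96 on the log2 scale. Over MI, MII and zygote together it differed from WT by 0.43 in Cnot6l-/- and 0.30 in libraries labelled Btg4-/-. After scaling these values were -0.38 (adjusted p = 0.31) and -0.65 (adjusted p = 0.084), so even the sign depended on the scale.

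Ccnb2, the B cyclin that can stand in for Ccnb1 in oocytes, had its lowest WT values in zygotes. They were 197.6 and 178.0 FPKM at GV, 113.9 and 84.6 at MI, 63.5 and 59.0 at MII, with 36.4 and 25.5 in zygotes, with no overlap between stages. Of the 3 steps the first passed the test, while MI to MII (-0.67, adjusted p = 0.084; -0.01 after scaling) and MII to zygote (-0.98, adjusted p = 0.064; -0.48 after scaling) did not. In Cnot6l-/- they were 183.3 and 183.5, 128.6 and 115.4, 130.7 and 111.8, and 66.5 and 93.3 FPKM, so that all 6 later libraries were above both WT libraries of their stage. Over those stages Ccnb2 was higher in Cnot6l-/- than in WT by 0.87 ± 0.17 (adjusted p = 0.00018), called without each library in turn, but by 0.08 after scaling (adjusted p = 0.54). At MII the difference was 0.97 ± 0.29 (adjusted p = 0.011), lost without the second WT MII or the first Cnot6l-/- MII library (adjusted p up to 0.087) and 0.15 after scaling. Zygotes of Cnot6l-/- were higher by 1.34 ± 0.29 (adjusted p = 0.0066; 0.71 and still called after scaling), lost without the second Cnot6l-/- or the second WT zygote library (adjusted p up to 0.1) and in a fit of those 4 libraries alone (adjusted p = 0.36).

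The group labelled Btg4-/- had 144.4 and 175.6 FPKM of Ccnb2 at GV, 126.5 and 128.6 at MI, 99.7 and 71.6 at MII, with 73.3 and 49.9 in zygotes. Across the later stages it was above WT by 0.60 ± 0.17 (adjusted p = 0.0039), again without each library in turn, but below WT by the scaled values (-0.34, adjusted p = 0.0096). In zygotes the difference was 0.97 ± 0.29 (adjusted p = 0.022), 0.09 after scaling, and lost without the second WT or the first library labelled Btg4-/- (adjusted p up to 0.24) and in a fit of those 4 libraries alone (adjusted p = 0.3). The WT fall of Ccnb2 from GV to MI, -0.93 ± 0.29 (adjusted p = 0.0095), was lost without the first GV or the MI library numbered 3 (adjusted p up to 0.1) and was 0.33 after scaling, that is, no larger than the fall of the genes used for scaling.

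Ccnb3, a B-type cyclin of meiosis, ran between 1.33 and 8.28 FPKM in all libraries. WT oocytes had 8.28 and 3.53 FPKM at GV, 5.83 and 4.55 at MI, 2.24 and 1.90 at MII, with 2.25 and 1.45 in zygotes, the 2 GV libraries spanning those of MI. Cnot6l-/- had 4.09 and 2.51, 4.54 and 4.14, 2.21 and 1.33, and 1.48 and 1.49 FPKM at the same stages, and libraries labelled Btg4-/- had 7.40 and 5.17, 7.10 and 6.63, 5.29 and 2.50, and 4.24 and 1.82. Between MI and MII it differed by -1.01 ± 0.36 in WT (adjusted p = 0.04) and by -0.96 ± 0.36 in Cnot6l-/- (adjusted p = 0.031). The first call was lost without any 1 of its 4 libraries (adjusted p up to 0.24), the second without either MI library or the second MII library (adjusted p up to 0.2), and both after scaling. Ccnb3 was the member that lay below WT in Cnot6l-/- at all 4 stages as deposited, with values from -0.62 to -0.16 and no call. After scaling it was called lower in Cnot6l-/- at MI (-0.96), MII (-0.80) and zygote (-0.73), relative to the genes that all libraries share. At GV the difference was -0.62 as deposited and -0.46 after scaling, neither called. The change from GV to the mean of the later stages was not called different from WT by limma (0.43, adjusted p = 0.41). After scaling it differed by -0.37 (adjusted p = 0.47).

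The CDC25 phosphatases, which activate CDK1, each had a course of their own. Cdc25a, best known from the entry into S phase and division of somatic cells, was 14.2 and 9.39 FPKM in WT at GV, 3.05 and 1.84 at MI, 1.94 and 2.62 at MII, with 2.98 and 1.81 as zygotes. Its WT libraries of the 3 later stages overlapped, and by MI it had fallen by 1.89 ± 0.25 (adjusted p = 5.6e-06; -0.82 after scaling, also called). Cnot6l-/- had 11.8 and 13.0 FPKM at GV and 9.97 and 11.6 at MI, then 4.22 and 3.36 at MII and 2.81 and 3.53 in zygotes. Oocytes labelled Btg4-/- had 19.4 and 16.5 at GV and 12.8 and 14.6 at MI, then 4.40 and 4.38 at MII and 8.68 and 6.95 in zygotes. At MI Cdc25a was higher than in WT by 1.79 ± 0.25 in Cnot6l-/- (adjusted p = 1e-05) and by 2.12 ± 0.25 in libraries labelled Btg4-/- (adjusted p = 1.5e-06), and by 1.0 and 1.06 after scaling, all called. The later fall from MI to MII was 1.30 ± 0.25 in Cnot6l-/- (adjusted p = 0.00035), with -0.61 and a call after scaling. It was 1.45 ± 0.25 in the group labelled Btg4-/- (adjusted p = 8.5e-05), with -0.40 and no call after scaling.

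Zygotes labelled Btg4-/- held the highest Cdc25a of that stage. The difference from WT zygotes was 1.39 ± 0.25 (adjusted p = 0.00073), kept without each library in turn and after scaling (0.75), but not in a fit of those 4 libraries alone (adjusted p = 0.11). At MII the same comparison gave 0.72 ± 0.25 (adjusted p = 0.04), lost without any 1 of its 4 libraries (adjusted p up to 0.24) and after scaling (adjusted p = 0.51).

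Cdc25b, the phosphatase that mouse oocytes need to resume meiosis, was near its GV level at MI in all 3 genotypes and lower after it. In WT it was 7.77 and 5.84 FPKM at GV, 9.35 and 6.36 at MI, 1.0 in both libraries at MII, with 1.13 and 1.12 in zygotes. Between MI and MII it fell by 2.13 ± 0.26 (adjusted p = 1.2e-05; -1.82 after scaling, also called). Cnot6l-/- eggs kept it longer: 5.50 and 7.17 at GV, 8.23 and 8.72 at MI, still 4.72 and 4.93 at MII, with 0.58 and 1.58 in zygotes. At MII this was higher than in WT by 1.54 ± 0.26 (adjusted p = 0.00013) and by 1.09 after scaling, called without each library in turn. Its fall came from MII to zygote, by 1.53 ± 0.26 (adjusted p = 0.00027; -1.19 after scaling, also called). The step from MI to MII, -0.70 ± 0.26 (adjusted p = 0.029), was lost without any 1 of its 4 libraries (adjusted p up to 0.12) and was -0.02 after scaling.

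Among libraries labelled Btg4-/- Cdc25b had 15.0 and 9.0 FPKM at GV, 9.60 and 10.4 at MI, 1.34 and 1.18 at MII, with 0.68 and 0.81 in zygotes. Its fall from MI to MII was 2.28 ± 0.26 (adjusted p = 7.8e-07; -1.32 after scaling, also called), and at MII it differed from WT by 0.18, with no call. Cdc25b was thus high at MII in Cnot6l-/- libraries, and low in both others.

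Cdc25c, the third phosphatase, was above WT at all 3 later stages in the libraries labelled Btg4-/-. WT libraries had 5.73 and 6.86 FPKM at GV, 0.77 and 0.71 at MI, 0.28 and 0.10 at MII, with 0.15 and 0.07 in zygotes. The fall from GV to MI was 2.06 ± 0.22 (adjusted p = 4.6e-07; -1.14 after scaling, also called). Cnot6l-/- had 3.86 and 4.32, then 3.94 and 2.93, then 1.27 and 0.96, and in zygotes 0.08 and 0.14 FPKM, the WT level. Libraries labelled Btg4-/- had 3.85 and 5.85, then 4.37 and 7.36, then 1.92 and 1.30, and in zygotes still 1.69 and 1.44 FPKM.

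Cdc25c was higher than in WT at MI by 1.34 ± 0.22 in Cnot6l-/- (adjusted p = 5.4e-05) and by 1.95 ± 0.22 in libraries labelled Btg4-/- (adjusted p = 8.5e-07), and by 0.73 and 1.06 after scaling, both called. The latter group was also above WT at MII, by 1.13 ± 0.22 (adjusted p = 0.00094), and in zygotes, by 1.21 ± 0.22 (adjusted p = 0.00079), with 1.06 and 1.36 after scaling. All of these were called without each library in turn, and the zygote value was not called in a fit of its 4 libraries alone (adjusted p = 0.051). Cnot6l-/- eggs at MII were higher by 0.83 ± 0.22 (adjusted p = 0.0056; 0.70 after scaling, also called), lost without the second WT or the first Cnot6l-/- MII library (adjusted p up to 0.058). Between MI and MII Cdc25c fell by 1.06 ± 0.22 in Cnot6l-/- (adjusted p = 0.00063) and by 1.37 ± 0.22 in libraries labelled Btg4-/- (adjusted p = 3.8e-05), neither called after scaling. From MII to zygote it fell by 0.93 ± 0.22 in Cnot6l-/- (adjusted p = 0.0044; -0.88 after scaling, also called), lost without the first MII library (adjusted p = 0.052).

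The inhibitory kinases comprised 1 abundant transcript, Wee2, and 2 scarce ones, Wee1 and Pkmyt1. Wee1, the somatic form, was 6.26 and 2.93 FPKM in WT at GV, 0.43 and 0.45 at MI, 0.17 and 0.10 at MII, with 0.51 and 0.15 in zygotes. In Cnot6l-/- it was 5.02 and 4.73, 6.21 and 7.39, 2.17 and 0.88, and 0.13 and 0.24. Libraries labelled Btg4-/- had 7.65 and 7.22, 7.29 and 6.58, 0.38 and 0.17, and 0.40 and 0.16. The WT fall from GV to MI was 1.89 ± 0.26 (adjusted p = 8.1e-06; -1.04 after scaling, also called), while at MI the libraries of both other genotypes were near or above their GV level. They stood above WT there by 2.43 ± 0.26 (Cnot6l-/-, adjusted p = 5.6e-07) and 2.46 ± 0.26 (labelled Btg4-/-, adjusted p = 4e-07), and by 1.77 and 1.58 after scaling, all called.

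From MI to MII Wee1 fell by 2.64 ± 0.26 in the group labelled Btg4-/- (adjusted p = 1.6e-07) and by 1.67 ± 0.26 in Cnot6l-/- (adjusted p = 4.4e-05), both called after scaling too. Cnot6l-/- eggs at MII were above WT by 1.11 ± 0.26 (adjusted p = 0.0024; 1.0 after scaling, also called). Without their first library the value was 0.73 (adjusted p = 0.065). Their fall to the zygote was 1.04 ± 0.26 (adjusted p = 0.006; -0.94 after scaling, also called), lost without the first MII (-0.67, adjusted p = 0.13) or the first zygote library.

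Wee2, which encodes the oocyte kinase WEE1B and has the CPEs described above, was abundant at all stages, like Ccnb1 and Ccnb2. WT libraries had 210.3 and 156.9 FPKM at GV, 103.2 and 75.8 at MI, 66.6 and 51.3 at MII, with 40.5 and 29.1 in zygotes. Cnot6l-/- had 193.7 and 172.0, 155.3 and 143.9, 101.6 and 59.1, and 44.0 and 56.3, and the group labelled Btg4-/- had 150.0 and 152.8, 166.8 and 174.8, 90.6 and 52.6, and 76.9 and 38.7 FPKM. At MI the libraries of both groups lay above both WT libraries, while at MII they overlapped WT. The WT fall from GV to MI was 1.03 ± 0.36 (adjusted p = 0.02), lost without the first GV or the MI library numbered 3 (adjusted p up to 0.15). At MI the group labelled Btg4-/- was higher by 0.94 ± 0.36 (adjusted p = 0.03), lost without either of its own libraries or the WT library numbered 3 (adjusted p up to 0.19). From MI to MII it fell by 1.29 ± 0.36 in that group (adjusted p = 0.0047), lost without the second MII library (adjusted p = 0.086). In Cnot6l-/- the same step was -0.94 ± 0.36 (adjusted p = 0.037), lost without either MI library or the second MII library (-0.55, adjusted p = 0.34). After scaling none of these 4 Wee2 values was called, at 0.22, -0.27, -0.14 and -0.16.

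Pkmyt1, which holds CDK1 inactive at the Golgi and endoplasmic reticulum, had 3.51 and 5.37 FPKM in WT at GV, 5.75 and 4.48 at MI, 1.14 and 2.17 at MII, with 0.59 and 1.55 in zygotes. Cnot6l-/- had 2.28 and 4.52, 6.96 and 7.09, 1.43 and 2.79, and 1.21 and 2.77, and the group labelled Btg4-/- had 6.73 and 4.55, 8.42 and 7.90, 1.49 and 3.13, and 0.69 and 1.90. MI was the highest stage by group mean in all 3 genotypes. From MI to MII it fell by 1.22 ± 0.38 in WT (adjusted p = 0.019), by 1.40 ± 0.38 in Cnot6l-/- (adjusted p = 0.0045) and by 1.51 ± 0.38 in libraries labelled Btg4-/- (adjusted p = 0.002), and no step was called after scaling. The WT call was lost without the MI library numbered 2 or the first MII library (adjusted p up to 0.17), and the Cnot6l-/- call without the first MII library (adjusted p = 0.056). Across the later stages Pkmyt1 differed from WT by 0.38 in Cnot6l-/- and 0.34 in libraries labelled Btg4-/-, neither called. Its library numbered 1 lay below the one numbered 2 in 8 of the 9 groups other than MI, and with the number as a block both values were called (adjusted p = 0.024 and 0.039). After scaling they were -0.19 and -0.34, with no call.

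Read as counts, the members moved about as often as all tested genes did, 10884 in number. In WT 6 of the 10 were lower at MI than at GV, against 65.1% of all genes, 4 were lower at MII than at MI, against 32.6%, and 0 were called between MII and zygote (2 at an unadjusted p under 0.05), against 4.25%. In Cnot6l-/- the numbers lower were 1 at MI (all genes 15%), 8 at MII (54.3%) and 4 in zygotes (28.7%), each against the stage before. The group labelled Btg4-/- had 0 at MI (0 at an unadjusted p under 0.05; 1.66% of all genes in either direction), 7 at MII (69.3%) and 0 in zygotes (1 at an unadjusted p under 0.05; 1.32%). The steps at which most members fell were thus GV to MI in WT and MI to MII in the other genotypes, as for all genes. The members lower at MII were 2 in WT without the MI library numbered 2 or the first MII library, and 5 in Cnot6l-/- without either MI library or the second MII library. Those lower in Cnot6l-/- zygotes were 2 without the first MII library. The median change of the members from GV to MI in WT was -0.98, and that of all genes -0.95. In Cnot6l-/- both medians were near 0 at that step (-0.20 and -0.14), and in the group labelled Btg4-/- too (0.02 and -0.10).

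No member differed from WT at GV in either genotype by limma, with 1 in Cnot6l-/- and 3 in libraries labelled Btg4-/- at an unadjusted p under 0.05, where 9.09% and 7.43% of all genes were called. Leaving out the first WT or the second library labelled Btg4-/- gave 1 call in the latter. In Cnot6l-/- 4 members were higher at MI (all genes 60.3%), 5 at MII (44.3%) and 1 in zygotes (8%), and 7 over the 3 stages together (70.8%). Of the members in libraries labelled Btg4-/-, 5 were higher at MI (68.7%), 2 at MII (28.3%) and 3 in zygotes (21.5%), and 7 over the 3 stages (73.1%). No member was called lower than WT in any of these comparisons. The 5 of Cnot6l-/- at MII were 3 without the second WT library and 2 without the first Cnot6l-/- library. Both sets of comparisons share the WT libraries. The 7 members higher over the 3 stages in Cnot6l-/- were Cdk1 (1.47), Wee1 (1.13), Cdc25a (0.88), Ccnb2 (0.87), Cdc25c (0.72), Wee2 (0.56) and Cdc25b (0.53). Those of the group labelled Btg4-/- were Cdc25c (1.43), Cdc25a (1.41), Wee1 (0.86), Cdk1 (0.74), Wee2 (0.61), Ccnb2 (0.60) and Ccnb3 (0.47). Of these, Wee2 was lost in Cnot6l-/- without any 1 of 6 of the 12 libraries (3 of WT, numbered 3 at MI and 2 at MII and zygote, and 3 of Cnot6l-/-, numbered 2 at MI, 1 at MII and 2 at zygote; adjusted p up to 0.092). In the group labelled Btg4-/- Wee2 was lost without its first MII or first zygote library (adjusted p up to 0.062), Ccnb3 was lost without any 1 of 9 of the 12 libraries, all but the first WT zygote library and the second MII and zygote libraries labelled Btg4-/- (adjusted p up to 0.18), and Cdk1 was 0.47 without the second WT zygote library (adjusted p = 0.034).

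**Figure D2:**
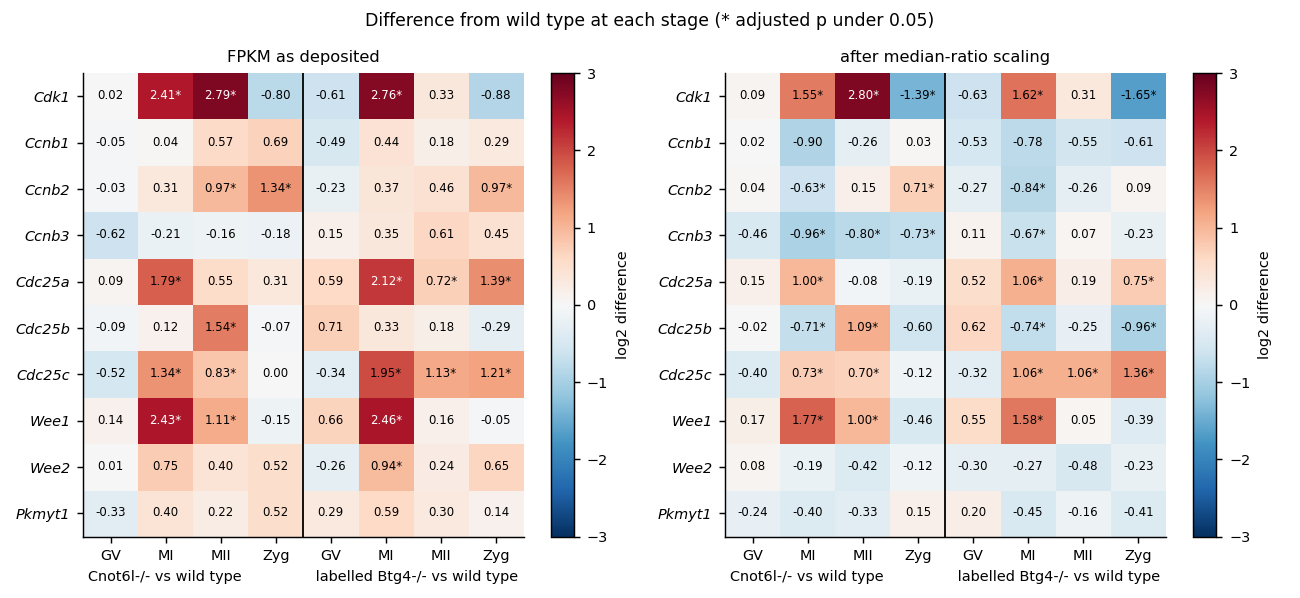
Difference from WT on the log2(FPKM + 1) scale for each member (rows) at each stage (columns), as deposited (left) and after median-ratio scaling (right); colour and numbers give the same value, and an asterisk marks an adjusted p under 0.05. Cdk1, Cdc25a, Cdc25c and Wee1 are higher at MI in both genotypes and on both scales, whereas Ccnb2, Ccnb3 and Cdc25b are called lower there only after scaling.

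After scaling, which is relative to genes present in all libraries, the members were called in both directions. The median over all genes of the WT change from GV to MI moved from -0.95 to -0.16, and that of the difference at MI from 0.87 to 0.28 in Cnot6l-/- and from 0.99 to 0.22 in libraries labelled Btg4-/-. From GV to MI in WT 4 members were then lower (all genes 30.5%) and 2 higher (15.2%), Ccnb3 by 0.95 and Cdc25b by 1.23. At MI 4 members were higher than WT in Cnot6l-/- (35.8%) and 3 lower (11%), and in libraries labelled Btg4-/- 4 were higher (32.5%) and 3 lower (9.82%). The members that fell in WT were Cdk1, Cdc25a, Cdc25c and Wee1. At MI those higher than WT were Cdk1, Cdc25a, Cdc25c and Wee1, and those lower were Ccnb2 (-0.63 in Cnot6l-/- and -0.84 in libraries labelled Btg4-/-), Ccnb3 (-0.96 and -0.67) and Cdc25b (-0.71 and -0.74). All 3 comparisons use the same 2 WT MI libraries, so a low or high WT value there enters each of them, and they are not independent of each other. Ccnb1 differed by -0.90 and -0.78 at MI on this scale, with no call.

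The scaled counts of the other comparisons were mixed as well. From MI to MII 3 members were lower in Cnot6l-/- (26.8%) and 3 in libraries labelled Btg4-/- (30.6%), while Ccnb2 was higher in both (6.41% and 5.31%), by 0.77 and 0.57. Against WT, Cnot6l-/- had 4 members higher (34.3%) and 1 lower (8.69%) at MII, and 1 higher (8%) and 2 lower (7.91%) in zygotes. The group labelled Btg4-/- had 1 higher at MII (21.8%), and 2 higher (11.7%) and 2 lower (3.04%) in zygotes. Over the 3 stages together Cnot6l-/- had 3 higher, Cdk1, Cdc25c and Wee1 (40.4%), and 1 lower, Ccnb3 (14%). The group labelled Btg4-/- had Cdc25a, Cdc25c and Wee1 higher (37.8%) and Ccnb2, Cdc25b and Wee2 lower (15.6%).

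The change from GV to the mean of the later stages was also compared between genotypes, which takes out differences already present at GV. The later fall was smaller than in WT for 5 members in Cnot6l-/- (all genes 32.3%) and for 3 members in libraries labelled Btg4-/- (30.4%). Cdc25c differed by 1.24 ± 0.26 in Cnot6l-/- (adjusted p = 0.0021; 0.84 and adjusted p = 0.054 after scaling) and by 1.76 ± 0.26 in the group labelled Btg4-/- (adjusted p = 0.0001; 1.49 and called after scaling), without each library in turn. The other calls were lost after scaling and without single libraries. After scaling Cdc25b was called in the other direction in the group labelled Btg4-/-, where its later fall was larger than in WT (-1.26, adjusted p = 0.0065; -0.63 and adjusted p = 0.12 as deposited). That left 1 member higher (15.1%) and 1 lower (4.73%) on this scale. As deposited, calls were lost without single libraries. For Cdk1 in Cnot6l-/- (1.45, adjusted p = 0.025) and Wee1 (0.99, adjusted p = 0.02; 0.55 without the first WT GV library) these single libraries were the first WT and both Cnot6l-/- GV libraries. For Ccnb2 (0.91) and Cdc25a (0.80) in Cnot6l-/-, both with an adjusted p of 0.045, they were 12 and 10 of the 16 libraries, all GV libraries but the second of WT for Cdc25a among them. For Cdc25a (0.82, adjusted p = 0.04) and Cdk1 (1.34, adjusted p = 0.035) with the label Btg4-/- they were 9 and 6 of the 16, the first WT GV library in both. Without that library 1 member was called in each genotype. Likewise 1 was called in Cnot6l-/- without either of its GV libraries, and in the group labelled Btg4-/- without its first GV or first zygote library or either MI library numbered 3, against 5 without its second zygote library.

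The 2 genotypes were also set against each other. Over MI, MII and zygote, Cdc25c was lower in Cnot6l-/- than in the group labelled Btg4-/- (-0.70 ± 0.13, adjusted p = 0.00075), and so was Cdc25a (-0.53 ± 0.15, adjusted p = 0.015), on both scales and without each library in turn. Ccnb3 was lower too (-0.66, adjusted p = 0.031), so 3 members were lower (all genes 13.6%). Cdk1 (0.73, adjusted p = 0.03) and Cdc25b (0.45, adjusted p = 0.037) were higher, 2 members (8.43%). Ccnb2 (0.41, adjusted p = 0.0052) and Wee1 (0.36, adjusted p = 0.031) were called higher only after scaling. On that scale 4 members were higher and 3 lower, against 1463 and 1266 of 9823 genes. The calls of Ccnb3, Cdk1 and Cdc25b were kept after scaling, but were lost without any 1 of 9, 9 and 11 of the 12 libraries (adjusted p up to 0.11), and the count of 5 was 2 or 3 without any library.

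Gaps between these 2 genotypes stood at GV as well, in a comparison chosen after seeing the data. Cdc25a differed there by -0.50 ± 0.25, its libraries in Cnot6l-/- (11.8 and 13.0 FPKM) lying below those labelled Btg4-/- (19.4 and 16.5). Ccnb3 differed by -0.77 ± 0.36, Cdk1 by 0.63 ± 0.40 and Cdc25c by -0.18 ± 0.22, and none of these 4 was called (adjusted p from 0.15 to 0.63), though Ccnb3 was with library number as a block (adjusted p = 0.024). Cdc25b was the 1 member called, lower in Cnot6l-/- by 0.80 on the log2 scale (-0.80 ± 0.26, adjusted p = 0.041; all genes 12.4%), lost without the first library of either genotype (adjusted p up to 0.45) and after scaling (-0.64, adjusted p = 0.12). The change from GV to the mean of the later stages, which takes these gaps out, was then compared. It differed by -0.03 ± 0.29 for Cdc25a, 0.11 ± 0.41 for Ccnb3, 0.11 ± 0.46 for Cdk1 and -0.52 ± 0.26 for Cdc25c, none called (adjusted p from 0.26 to 0.97). Cdc25b was the 1 member called higher in Cnot6l-/- (all genes 1.41%), by 1.25 ± 0.30 (adjusted p = 0.034; 1.21 and adjusted p = 0.048 after scaling), and the call was lost without any 1 of 8 of the 16 libraries (adjusted p up to 0.25). Averaged over the later stages, the differences in level of Cdc25a (-0.53), Ccnb3 (-0.66) and Cdk1 (0.73) were close to those at GV. For Cdk1 that mean held unlike values, -0.34 at MI, 2.46 at MII and 0.08 in zygotes. Cdc25a had -0.32, -0.18 and -1.08 at these stages, and Ccnb3 -0.56, -0.78 and -0.63. With these SEs a change that was not called does not show that the gaps stayed the same.

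Comparisons at single stages, chosen after seeing the data, placed these differences. At MI no member was called by limma (1 at an unadjusted p under 0.05), against 10.1% of all genes in either direction, and 1 was called without the MI library labelled Btg4-/- and numbered 2. A fit of those 4 libraries alone called 3 members lower in Cnot6l-/-: Ccnb3 (-0.56, adjusted p = 0.0073), Ccnb1 (-0.40, adjusted p = 0.017) and Cdk1 (-0.34, adjusted p = 0.031). No share of all genes is given for that fit, so this count is not a result about the members. The median difference of all genes at MI was -0.19 as deposited. In the fit of all libraries after scaling, Ccnb3, Ccnb1 and Cdk1 differed by -0.29, -0.12 and -0.07, with no call. At MII Cdk1 was higher in Cnot6l-/- by 2.46 ± 0.40 (adjusted p = 0.00054) and Cdc25b by 1.37 ± 0.26 (adjusted p = 0.0019), on both scales and without each library in turn. Cdc25b was not called in a fit of those 4 libraries alone (adjusted p = 0.067). Ccnb3 was called lower at MII only after scaling (-0.87, adjusted p = 0.014), where 419 of 9823 genes were. Wee1 was higher there by 0.94 ± 0.26 (adjusted p = 0.023), lost without the first Cnot6l-/- library (0.57, adjusted p = 0.33) or either library labelled Btg4-/-, so 3 members were higher (all genes 11%). In zygotes Cdc25c (-1.21 ± 0.22, adjusted p = 0.0013) and Cdc25a (-1.08 ± 0.25, adjusted p = 0.0076) were lower in Cnot6l-/-, 2 members (12.8%). Ccnb2 was called higher in zygotes only after scaling (0.62, adjusted p = 0.015), where 718 of 9823 genes were. The Cdc25a call was lost without the first library of either genotype (adjusted p up to 0.085) and in a fit of those 4 libraries alone (adjusted p = 0.29).

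Ratios between members of 1 library do not depend on how libraries were scaled. Cdk1 was 10.2% and 13.4% of Ccnb1 in WT at GV, 1.45% and 1.16% at MI, and 0.0322% and 0.0286% at MII. In Cnot6l-/- it was 10.3% and 14.6% at GV, 7.75% and 8.22% at MI, and 1.53% and 2.78% at MII. With the label Btg4-/- it was 9.09% and 12.6%, 7.57% and 7.89%, and 0.0901% and 0.236%. The 3 genotypes overlapped at GV, both others stood apart from WT at MI, and each of the 3 stood apart at MII with Cnot6l-/- the highest. In zygotes the order was different: WT had 2.37% and 0.695%, and the 4 other libraries had 0.249% to 0.377%.

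Wee1 against Wee2 gave the same order at MI and MII, but not at GV. Wee1 was 2.98% and 1.87% of Wee2 in WT at GV, 0.417% and 0.594% at MI, and 0.255% and 0.195% at MII. At GV it was 2.59% and 2.75% in Cnot6l-/-, within the WT range, and 5.1% and 4.73% in libraries labelled Btg4-/-, which stood above both others already there. At MI it was 4.0% and 5.13% in Cnot6l-/- and 4.37% and 3.76% in libraries labelled Btg4-/-. At MII it was 2.14% and 1.49% in Cnot6l-/- and 0.419% and 0.323% in libraries labelled Btg4-/-. Cdc25c was 0.0903% and 0.0715% of Ccnb1 in WT at MII, 0.231% and 0.552% in Cnot6l-/-, and 0.468% and 0.960% in libraries labelled Btg4-/-. In zygotes it was 0.1% and 0.0918% in WT, 0.0347% and 0.108% in Cnot6l-/-, and 0.657% and 2.17% in libraries labelled Btg4-/-, the one genotype above WT there. With 2 libraries a group no test was run on these ratios.

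**Figure D3:**
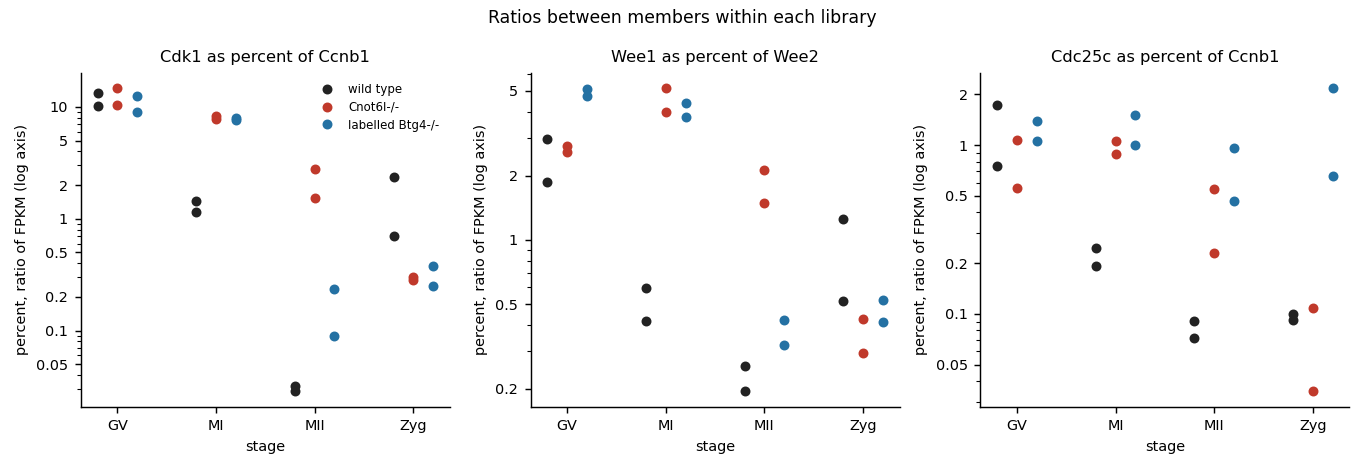
Ratio of FPKM between 2 members within each library, in percent on log axes, by stage; points are libraries, 2 per group, for WT (black), Cnot6l-/- (red) and the group labelled Btg4-/- (blue). At MII, Cdk1 is 0.0322% and 0.0286% of Ccnb1 in WT, 0.0901% and 0.236% in the group labelled Btg4-/-, and 1.53% and 2.78% in Cnot6l-/-.

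Other genes of the same machinery were counted in lists, as deposited and then after scaling, against the shares of all genes. As deposited these were 65.1% lower in WT from GV to MI, and 70.8% (Cnot6l-/-) and 73.1% (labelled Btg4-/-) higher over the later stages. After scaling they were 30.5% lower and 15.2% higher in WT, 40.4% higher and 14% lower in Cnot6l-/-, and 37.8% higher and 15.6% lower in the group labelled Btg4-/-. Of 6 tested partners of CDK1 and subunits of its activating kinase, 5 fell in WT from GV to MI (3 after scaling, and 1 rose). Cyclin H, Ccnh, had the lowest change, -3.34 (adjusted p = 0.00015), and Cks2, a CDK-binding subunit, the highest among those called, -1.34 (adjusted p = 0.012; -0.07 after scaling). Over the later stages 2 were higher in Cnot6l-/-, Cdk7, the kinase of that complex (2.11, adjusted p = 1.8e-05), and Mnat1, its assembly factor (1.13, adjusted p = 0.0028; not called after scaling). The group labelled Btg4-/- had 4 higher, from Cks1b (0.55, adjusted p = 0.031; -0.40 after scaling) to Ccnh (2.54, adjusted p = 7.4e-06). After scaling the list had 1 higher and 3 lower in Cnot6l-/-, and 3 and 3 in libraries labelled Btg4-/-.

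The phosphatase PP2A removes the phosphates that CDK1 adds to its targets, and Greatwall, through Ensa, holds PP2A in check. Of 9 tested genes of this arm 6 fell in WT from GV to MI (3 after scaling, and 1 rose). Ppp2ca, the catalytic subunit, had -3.90 (adjusted p = 1.1e-07), and Ensa -0.91 (adjusted p = 0.0018; 0.20 after scaling). Across the later stages 5 were higher in Cnot6l-/- and 6 in libraries labelled Btg4-/- (4 higher and 1 lower, and 4 higher and 2 lower, after scaling). Ppp2r2b, a regulatory subunit of PP2A, had the highest value in both, 2.13 (adjusted p = 1.4e-07) and 2.94 (adjusted p = 3.2e-09). The lowest called values were those of the scaffold Ppp2r1b in Cnot6l-/- (0.58, adjusted p = 0.0032; 0.08 after scaling) and of Mastl, which encodes Greatwall, in the group labelled Btg4-/- (0.82, adjusted p = 0.047; -0.06 after scaling).

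Of 13 tested kinases and 14-3-3 proteins that act on CDC25 and WEE, 8 fell in WT from GV to MI, from Ywhah, a 14-3-3 protein (-3.56, adjusted p = 1.7e-08), to the checkpoint kinase gene Chek2 (-0.79, adjusted p = 0.0011). Over the later stages 8 were higher in Cnot6l-/- and 10 in libraries labelled Btg4-/-, Ywhah most (1.69, adjusted p = 1.9e-07, and 2.85, adjusted p = 6.3e-10) and Chek2 least (0.30, adjusted p = 0.017, and 0.37, adjusted p = 0.0044). Of the 12 tested after scaling, which left out Chek2, 4 fell and 1 rose in WT, and 3 were higher and 2 lower in each of the other genotypes.

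Of 4 genes of cyclin destruction 1 fell in WT, Fbxo5, an inhibitor of the anaphase-promoting complex (-1.47, adjusted p = 0.00063; -0.23 after scaling, where 2 others rose). Over the later stages Fbxo5 (0.77, adjusted p = 0.0013) and Fzr1, an activator of that complex (1.33, adjusted p = 5.6e-05), were higher in Cnot6l-/-, and both in libraries labelled Btg4-/- (0.89, adjusted p = 0.00035, and 0.93, adjusted p = 0.0014). Neither was called after scaling, where 2 of the 4 were lower in each genotype. Of 9 tested interphase cyclins, CDKs and CDK inhibitors 5 fell in WT, most the cyclin D kinase gene Cdk4 (-2.81, adjusted p = 3.6e-09), and 1 rose, Ccnd3 (1.07, adjusted p = 0.0052). After scaling 2 fell and 1 rose. Over the later stages 5 were higher in Cnot6l-/- and 6 in libraries labelled Btg4-/-, most the CDK inhibitor gene Cdkn1b (2.85, adjusted p = 4.3e-08, and 1.36, adjusted p = 0.0001, both called after scaling). The lowest called were Cdkn1c in Cnot6l-/- (0.53, adjusted p = 0.0012; 0.12 after scaling) and Ccnd1 in the group labelled Btg4-/- (0.40, adjusted p = 0.00033; not tested after scaling). After scaling 4 were higher in Cnot6l-/-, and 3 higher and 1 lower in libraries labelled Btg4-/-.

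Genes of like pattern were sought for the leading member of each kind, over the 12 group means of log2(FPKM + 1) less the median of all tested genes in that group, among 5337 genes with at least 10 FPKM in some group. Nearest to Cdk1 were Sod1 (Pearson r = 0.985), Pnldc1 (0.985) and Copz1 (0.984). Nearest to Ccnb1 were Dkc1 (0.957), Nceh1 (0.956) and Tmem209 (0.956), and nearest to Wee2 were Dkc1 (0.921), Tmem39a (0.901) and 8430410A17Rik (0.895). Dkc1 thus headed the search for both Ccnb1 and Wee2. These are descriptions over group means that share libraries and a common fall, and many genes have such a course. Among the members, the highest correlations by the same measure were those of Ccnb1 with Wee2 (r = 0.88) and with Ccnb2 (r = 0.83), and of Cdk1 with Wee1 (r = 0.78). Relative to the median of all tested genes, Ccnb3 ran opposite to Cdk1 (r = -0.74) and Wee1 (r = -0.72), and Cdc25a opposite to Cdc25b (r = -0.76). In FPKM the WT mean of each of these members was nevertheless lower in zygotes than at GV.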

How the data were processed

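The deposited values are FPKM for 23235 genes in 24 libraries, made by the authors. Per the labels' protocols, RNA of 100 oocytes was amplified by a modified Smart-Seq2 and cut with Tn5, while the series' design text gives 2 oocytes. Per the submitters' processing notes the tools were CASAVA 1.8, TopHat2 2.0.11, Bowtie2 2.1.0 and Cufflinks 2.2.1, on mm9. Smart-Seq2 as published primes on poly(A) tails, so fewer transcripts and shorter tails cannot be told apart here. Depth is unknown, and precision rests on the spread of 2 libraries a group.

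The table of all libraries was used. Its MI columns are numbered 2 and 3, unlike the titles, and were assigned to groups only. The single-library tables were not used, since 6625 of the lines of each hold the columns of every library. Genes reaching a mean of 1 FPKM in some group (10884) entered limma 3.58.1 (R 4.3.3; lmFit, then eBayes with trend) as log2(FPKM + 1). The model held 12 group means and no covariate, leaving 12 residual degrees of freedom. Called means an adjusted p under 0.05 (two-sided, Benjamini-Hochberg over genes, per comparison). Log2 differences on this scale understate changes of low genes. Where 1 library was left out, the remaining one was taken to vary as the other groups do. As alternatives the fit was repeated after median-ratio scaling (9823 genes tested), with a pseudocount of 0.1, without the filter, on the compared groups alone, with library number as a block, and without each library. All 10 members are named, and of each pathway list the highest and lowest called gene. The members, lists and tests were chosen with earlier results of these data known. Tables and figures were made with pandas 2.3.3, numpy 2.4.6 and matplotlib 3.10.9 (Python 3.11.15). Sequences and 3′ UTRs come from mm9 and gencode vM1.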

Additional observations from a re-analysis of the deposited data

Results flagged for a closer look

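These results concern effects that differed between genotypes by a test of the difference itself, and are calls by limma, unless stated, with their values as log2 differences. In the change from GV to the mean of the later stages, Cnot6l-/- differed from WT in Cdk1 (1.45), Cdc25c (1.24), Wee1 (0.99), Ccnb2 (0.91) and Cdc25a (0.80). For the group labelled Btg4-/- the members were Cdc25c (1.76), Cdk1 (1.34) and Cdc25a (0.82). Of these 8, the Cdc25c values are those called without each library in turn.

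Over the later stages Cnot6l-/- differed from the group labelled Btg4-/- in Cdk1 (0.73), Cdc25b (0.45), Cdc25a (-0.53), Ccnb3 (-0.66) and Cdc25c (-0.70). At GV the same differences were 0.63, -0.80, -0.50, -0.77 and -0.18, of which only that of Cdc25b was called, and in the change from GV the 2 genotypes differed in Cdc25b (1.25). At single later stages the values were 2.46 for Cdk1, 1.37 for Cdc25b and 0.94 for Wee1 at MII, and -1.08 for Cdc25a and -1.21 for Cdc25c in zygotes. These comparisons of the 2 genotypes with each other at single stages and in the change from GV were chosen after seeing the data.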

How the results depend on the processing

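Of 84 called member values 49 were called without each single library. A pseudocount of 0.1, no filter and a fit of only the groups compared turned no sign among 123, 123 and 122 reported values. Scaling turned 24 of 123, and 76 of all 270 member values tested. In WT from GV to MI these were Ccnb2 (0.33), Ccnb3 (0.95) and Wee2 (0.22). From MI to MII they were the values of Ccnb2 (0.77 for Cnot6l-/-, 0.57 for the label Btg4-/-). Against WT at MI they were Ccnb1 (-0.90), Ccnb2 (-0.63) and Cdc25b (-0.71) in Cnot6l-/-, and Ccnb1 (-0.78), Ccnb2 (-0.84), Ccnb3 (-0.67), Cdc25b (-0.74) and Wee2 (-0.27) in the group labelled Btg4-/-, with its Cdc25b at MII (-0.25). Over the later stages they were Ccnb1 (-0.38), Cdc25b (-0.07), Wee2 (-0.24) and Pkmyt1 (-0.19) in Cnot6l-/-, and Ccnb1 (-0.65), Ccnb2 (-0.34), Ccnb3 (-0.27), Cdc25b (-0.65), Wee2 (-0.33) and Pkmyt1 (-0.34) in the group labelled Btg4-/-.

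Signs that 1 left-out library turned all belong to values that were not called. Against WT these ranged from -0.02 to 0.63 (Ccnb1) and -0.01 to 0.16 (Cdc25b) over the later stages in the group labelled Btg4-/-, and in Cnot6l-/- from -0.19 to 0.28 (Ccnb1) and -0.13 to 0.36 (Cdc25b) at MI, and for Ccnb3 from -0.40 to 0.07 at MII and -0.39 to 0.02 in zygotes. In WT from GV to MI Ccnb3 ranged from -0.59 to 0.44 and Cdc25b from -0.07 to 0.42, and Ccnb2 in Cnot6l-/- from MI to MII from -0.12 to 0.10. Between the 2 genotypes they were -0.43 to 0.07 for Cdc25c at GV and, for the change from GV, -0.22 to 0.43 (Cdk1), -0.14 to 0.08 (Cdc25a) and -0.16 to 0.38 (Ccnb3).

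After scaling, the members called in either direction numbered 2 for WT MII against MI (all genes, of 9823 tested, 554 higher and 2468 lower). They numbered 1 for WT zygote against MII (1476 and 477) and 0 for Cnot6l-/- MI against GV (1171 and 1040). For MII against MI they were 4 in Cnot6l-/- (630 and 2635) and 4 in the group labelled Btg4-/- (522 and 3006). The latter's zygotes against MII had 1 (211 and 134). Against WT, Cnot6l-/- had 7 members called at MI (3517 and 1082), 3 in zygotes (786 and 777) and 4 over the later stages together (3971 and 1373). At MII the group labelled Btg4-/- had 1 against WT (2146 and 643). For the change from GV in Cnot6l-/- 0 were called (595 and 59). Other causes than the construction of this scaling were not tested.

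For the pseudocount, filter, compared groups, left-out libraries and block, no share of all genes is given beside the counts below. A count that moves there is therefore not a result about the members. With a pseudocount of 0.1, 2 members were called in WT zygotes against MII and 0 in Cnot6l-/- MI against GV. With no filter these were 0 for the latter, 1 for the group labelled Btg4-/- against WT at MII, and 3 between the 2 genotypes over the later stages. The 1 member called between those at GV was 0 with a pseudocount of 0.1, after scaling and in a fit of only those groups, and the 1 in the change from GV was 0 with that pseudocount and in such a fit. Fits of only the groups compared, which use fewer samples, called 3 in Cnot6l-/- MI against GV, 0 in zygotes of either genotype against WT, 1 in the group labelled Btg4-/- against WT at MII, 3 and 1 for the changes from GV in Cnot6l-/- and that group, and 3, 1 and 1 between the genotypes at MI, MII and zygote.

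Leaving out 1 library gave 2 to 3 members for WT MII against MI, 0 to 1 for WT zygote against MII, 0 for Cnot6l-/- MI against GV, 5 to 6 for its MII against MI and 2 to 4 for its zygotes against MII. Against WT it gave 2 to 5 at MII and 0 to 1 in zygotes for Cnot6l-/-, and 0 to 1 at GV and 1 at MII for the group labelled Btg4-/-. The changes from GV gave 1 to 6 and 1 to 5, and the genotypes against each other 2 to 3 over the later stages, 0 to 1 at GV, at MI and for the change from GV, and 1 to 2 in zygotes.

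With the library number as a block, 2 members were called for WT zygote against MII, Cdk1 (1.30, adjusted p = 0.033) and Ccnb2 (-0.98, adjusted p = 0.044), 2 between the 2 genotypes at GV (3 with the numbers of the GV libraries labelled Btg4-/- crossed, a choice made after seeing the data, since the correlation there was -0.16), and Pkmyt1 over the later stages in both genotypes (0.38, adjusted p = 0.024, and 0.34, adjusted p = 0.039), and of the 92 values fitted no call was lost. No source says what a number marks, and 2 numbers a group give too few pairs to settle it, so the values as reported have no block. Deviations of same-numbered libraries correlated at 0.28 to 0.71 between any 2 of 8 groups, -0.31 to 0.00 between these and the GV group labelled Btg4-/-, and -0.09 to 0.01 among the MI groups. For comparisons of MI with GV or MII no paired analysis was possible because the groups share fewer than 2 numbers, the MI columns being numbered 2 and 3 and the others 1 and 2.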
